A study of Oncorhynchus mykiss with 15 samples.

Results

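The 69 rows described here carry the names of 6 miRNA entries, miR-2478, miR-7550, miR-9226, miR-4454, miR-6240 and miR-5099, which are doubtful as miRNAs. The sequences of all but miR-5099 resemble pieces of transfer RNA (tRNA) or ribosomal RNA (rRNA). They were found by the number in the row name, whatever the species prefix, and are 69 of the 1213 rows of a small RNA table from rainbow trout (Oncorhynchus mykiss) liver. Rows with different names can hold the same values, and the 69 rows hold 47 distinct sets of values of 1019 in the table. All fish were wild-type, with 3 libraries in each of 5 groups: control, 3 h, 12 h and 24 h of hypoxia stress, and 3 h of reoxygenation. The oxygen level, the age and sex of the fish and the length of hypoxia before reoxygenation were not given in the sources used here, nor whether a library came from 1 fish. The 6 numbers were chosen by earlier calls of these data, which held rows of miR-4454 and miR-9226 at 12 h, of miR-5099 at 24 h and of miR-2478 after reoxygenation. The members' differences from control at 12 h, at 24 h and after reoxygenation, and the limma calls listed for them, are therefore descriptions and support nothing.

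A tRNA carries an amino acid on its 3′ end, and in vertebrates the last bases of that end, CCA, are added by an enzyme after transcription. tRNAs are cut in cells under stress, and cuts within the T arm release fragments of the 3′ end in a shorter and a longer size class, both of which keep the CCA and have been found bound to Argonaute proteins. rRNA also yields abundant small fragments, and in miRNA databases several entries from deep sequencing overlap tRNA or rRNA genes. As background from human tRNAs, the ends of miR-2478, miR-7550, miR-9226 and miR-4454 resemble those of tRNAs for leucine, tyrosine, lysine and histidine, and the miR-6240 sequences lie in 28S rRNA. No tRNA or rRNA sequence of trout was matched here, and the source of miR-5099 is not known here.

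The main form of each tRNA-type number is shown with its 3′ CCA in capitals, followed by the longer forms of miR-2478 and miR-9226, since the short and long forms differed in their course.
bta-miR-2478_L-2: atcccacttctgacaCCA
ipu-miR-7550: atccggctcgaaggaCCA
efu-miR-9226_L-4_1ss22GA: gtccctgttcgggcgCCA
hsa-miR-4454_L-2_1ss8AG: atccgggtcacggcaCCA
bta-miR-2478_L+2: tcgtatcccacttctgacaCCA
pal-miR-9226-5p_1ss4AG: tcaggtccctgttcgggcgCCA
efu-miR-9226_2ss4AT22GA: tcatgtccctgttcgggcgCCA
In a row name, L and R give bases gained or lost at the 5′ and 3′ end against the database entry, and ss gives the number of base changes.

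Rows of 1 number were named by their likeness to 1 database entry, so a shared end follows from the naming. Of 49 rows of these 4 numbers, 47 held the last 10 bases of their number's main form, which end in CCA, and 2 had a base change within them. The sequence ended there in 15 rows, and 32 rows went on for 1 to 5 more bases: 1 base in 4 rows, 2 in 11, 3 in 9, 4 in 5 and 5 in 3. Among all 1144 rows that are no members, 49 (4.28%) ended in CCA. The tRNA-type rows were 18 to 22 bases long, and 12 of the 49 (24.5%) had 18 bases, against 39 of the 1144 other rows (3.41%). No row of the table was shorter than 18 bases, so any shorter fragments are missing here and from the ratios below. The median GC content of the tRNA-type rows was 57.9%, against 47.6% in rows that are no members, and it was highest for miR-9226 (66.7%) and miR-4454 (66.7%). Short length and high GC content were not particular to them. Of the 49 non-member rows ending in CCA, 16 (32.7%) had 18 bases, and their median GC content was 61.1%.

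Most miR-6240 rows lay in 2 short stretches. The stretch joined from overlapping forms is shown with the most abundant form, mmu-mir-6240-p5_1ss20GT, in capitals, and the second with the bases shared by its 2 tested forms in capitals.
miR-6240 stretch 1: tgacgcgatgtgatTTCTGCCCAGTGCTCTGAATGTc
miR-6240 stretch 2: aAAGCATCGCGAAGGCCCAAgg
Stretch 1 is 37 bases long and held 14 of the 19 miR-6240 rows exactly, or 10 sets of values, stretch 2 held 2 rows, and the other 3 rows fitted neither from end to end. Rows named p5 and p3, for the arms of the database precursor, thus lay on top of each other.

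**Figure D1:**
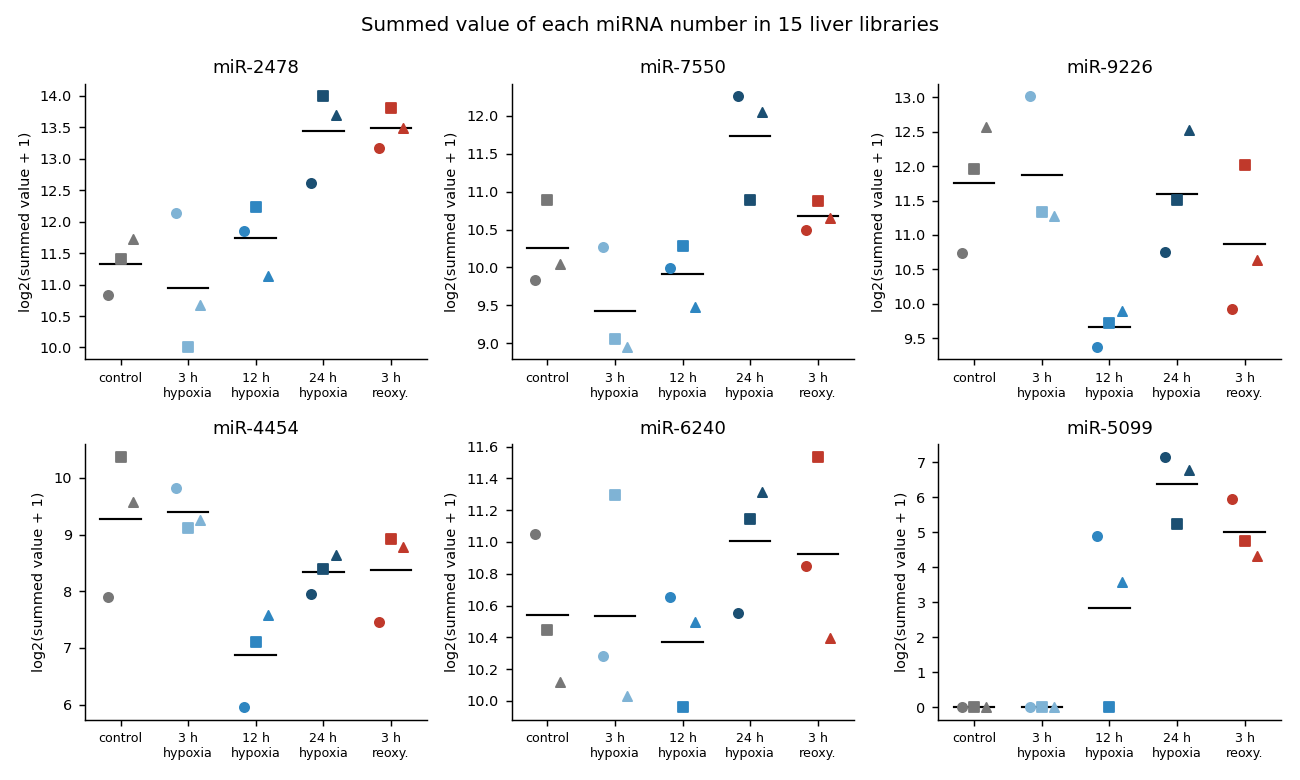
Summed value of all forms of each number, on a log2(value + 1) axis, in each of the 15 libraries; circles, squares and triangles are libraries 1, 2 and 3 and bars are means of the 3 log2 values. In these deposited values miR-2478 lies above every control library at 24 h and after reoxygenation, and miR-9226 and miR-4454 lie below every control library at 12 h. miR-5099 is at 0 in all control and 3 h libraries. As a share of the library total, miR-2478 at 24 h overlaps with control.

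Values are the authors' normalized numbers, rounded, on a scale that is not stated, so the reads behind them are unknown. The summed value of all members was a small part of each library, 0.0967% to 0.937% of the total over distinct sets of values. The mean share was 0.400% ± 0.223 in control (SD, n = 3) and 0.405% ± 0.210 after 3 h of hypoxia. It was 0.120% ± 0.0215 after 12 h, 0.652% ± 0.366 after 24 h and 0.523% ± 0.324 with reoxygenation. In whole liver, fewer cells that hold an RNA and less of it per cell cannot be told apart. The share of the hepatocyte miRNA miR-122 was higher at 12 h, at 24.7% to 33.6% in control and 55.7% to 60.2% at 12 h (25.2% to 59.1% at 24 h and 26.5% to 57.2% after reoxygenation), and its part in the member values was not tested. Mean GC content weighted by value, with miR-122 left out, was 46.2% to 46.8% in control and 45.1% to 45.4% at 12 h. As shares of the total, ranges in control and at 12 h were 0.0749% to 0.383% and 0.0897% to 0.129% for 8 red blood cell profiles (miR-451, miR-144, miR-486), 0.203% to 0.416% and 0.718% to 0.851% for 4 of endothelial miR-126, and 0.0156% to 0.0566% and 0.0208% to 0.0333% for 6 of white blood cell miR-223 and miR-142. Library 1 of reoxygenation was unlike the others of its group: log2 differences to them had SDs of 2.92 and 2.98, and for the same library of 24 h hypoxia the SDs were 2.14 and 2.25. Library 1 of control also differed from the others, with SDs of 1.79 and 1.92 against 1.09 between libraries 2 and 3, and its member share was 0.155% against 0.454% and 0.591%. In library 1 of reoxygenation, 39 of 622 tested profiles were at least 5 times higher than in any other library, and 0 of these were members.

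The leucine-type miR-2478 fragment was the most abundant member and the one with the highest values late in the series. bta-miR-2478_L-2, of 18 bases, was at 1612, 2585 and 3211 in control, 4357, 877 and 1498 after 3 h of hypoxia, and 3575, 4722 and 2177 after 12 h. It then stood at 6218, 16226 and 13069 after 24 h and at 9088, 14192 and 11425 after reoxygenation. In deposited values all 6 late libraries lay above all 9 earlier ones, while control, 3 h and 12 h overlapped. Of all tested rows, 5.85% lay above every control at 24 h and 7.18% after reoxygenation. No share was computed for 6 libraries against 9. Means were 11838 ± 5116 at 24 h and 11568 ± 2555 after reoxygenation against 2469 ± 806 in control (SD, n = 3), which are 4.79 and 4.68 times the control mean. On the log2(value + 1) scale, which understates changes of low rows, the fitted differences from control were 2.21 ± 0.54 (SE) and 2.26 ± 0.54. Scaled to the library total they were 1.80 and 1.85, with a correction for GC content 2.15 and 2.36, and with the first library of both late groups left out 2.62 and 2.42. As a share of the library total, all miR-2478 forms together were at 0.0418%, 0.1093% and 0.1612% in control. At 24 h they were at 0.1014%, 0.5357% and 0.4698%, which overlapped with control. After reoxygenation they were at 0.1925%, 0.5356% and 0.2725%, above every control. How many other rows separate on this scale was not computed.

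The longer forms of the same tRNA end did not follow the 18-base form. bta-miR-2478_L+2, of 22 bases, was at 195, 98 and 92 in control, 91, 115 and 83 at 3 h, 97, 62 and 58 at 12 h, 30, 57 and 122 at 24 h, and 100, 39 and 29 after reoxygenation. Its groups overlapped with control throughout, and its fitted differences were below 0, at -0.77 ± 0.59 (SE) at 12 h, -1.01 ± 0.59 at 24 h and -1.30 ± 0.59 after reoxygenation. bta-miR-2478_L+1, of 21 bases, was at 26, 20 and 27 in control, and its highest value was 10 at 12 h and 16 at 24 h and after reoxygenation, below every control. Of all tested rows, 23.8% lay below every control at 12 h, 9.84% at 24 h and 9.04% after reoxygenation. The other tested form, bta-miR-2478_1ss2TA, ranged from 0 to 33 with no group apart from control.

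The ratio of the 18-base to the 22-base form within a library does not depend on how that library was scaled. It is still a description and supports nothing, since it is made of rows that limma called. bta-miR-2478_L-2 was called higher after reoxygenation. Both 22-base miR-9226 forms were called lower at 12 h, and pal-miR-9226-5p_1ss4AG also after reoxygenation. For miR-2478 the ratio was 8.27, 26.4 and 34.9 in control and 47.9, 7.63 and 18.1 at 3 h. It was 36.9, 76.2 and 37.5 at 12 h, 207, 285 and 107 at 24 h, and 90.9, 364 and 394 after reoxygenation. Every library of the last 3 groups lay above every control library. At 12 h the margin was small, with 36.9 and 37.5 against a highest control of 34.9, and library 1 of 3 h was higher at 47.9. Among single rows, 40.7% had no overlap with control at 12 h, 15.7% at 24 h and 16.2% after reoxygenation. No such share was computed for ratios. For miR-9226, with both 22-base forms summed, the ratio was 1.12, 2.79 and 2.40 in control, 3.05, 1.84 and 1.69 at 3 h and 2.41, 3.79 and 4.27 at 12 h. It was 3.54, 6.87 and 4.18 at 24 h and 4.46, 16.7 and 6.36 after reoxygenation, all above control, while 12 h overlapped with it. Beside this, the share of non-member value in rows of 18 bases was 0.0576% to 0.271% in control, 0.0200% to 0.0362% at 12 h, below every control, and 0.0523% to 0.281% at 24 h. It was 0.475%, 0.211% and 0.124% in libraries 1, 2 and 3 of reoxygenation, and its part in the ratios was not tested.

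**Figure D2:**
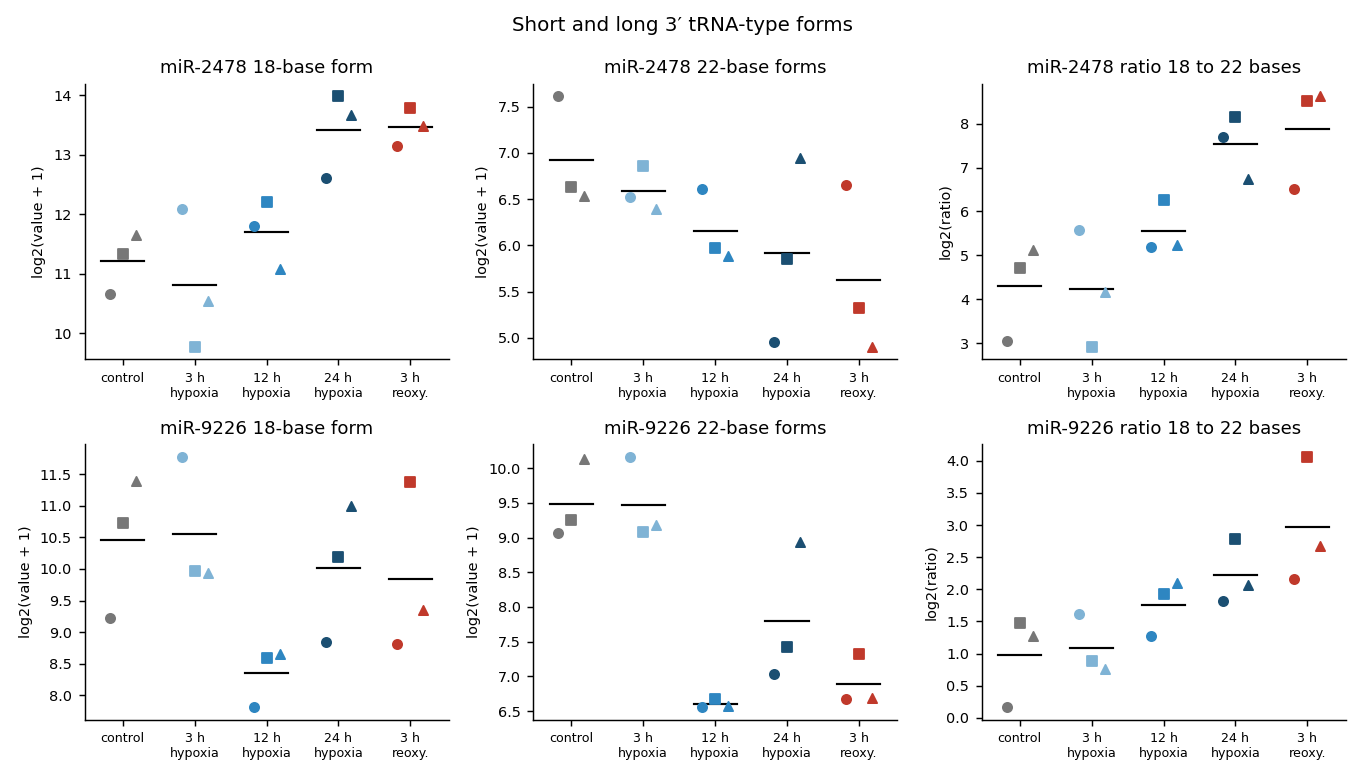
Values of the 18-base and 22-base forms of miR-2478 (top) and miR-9226 (bottom) on a log2(value + 1) axis, and the log2 ratio of 18-base to 22-base forms, by library (circle, square and triangle are libraries 1, 2 and 3; bars are means of the 3 log2 values). Both ratios lie above every control library at 24 h and after reoxygenation; for miR-2478 the 18-base form is high there, and for miR-9226 the 22-base forms are low.

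The lysine-type miR-9226 fragments had lower deposited values at 12 h than in control, and most of that difference was gone with a correction for GC content. efu-miR-9226_L-4_1ss22GA, of 18 bases, was at 599, 1696 and 2697 in control, 3495, 999 and 978 at 3 h, and 224, 383 and 401 at 12 h. It was at 460, 1168 and 2039 at 24 h and at 451, 2654 and 649 after reoxygenation, within the control range but for library 1 of each. All 3 libraries of 12 h lay below all controls, at 0.202 times the control mean. The fitted difference of this form at 12 h was -2.10 ± 0.75 (SE) as deposited, -3.12 when scaled to the library total and -0.18 with the GC correction. With that correction the 7 profiles of this number lay between -1.34 and 0.10. The GC curve was fitted over all tested rows, members included, and how much of the members' own difference it took up was not tested. As deposited, 6 of the 7 had no overlap with control at 12 h, all lower, where 40.7% of all tested rows had none and 23.8% were lower, and the exception was pal-mir-9226-p5_1ss18CT_1 (112, 472 and 569 in control and 88, 88 and 142 at 12 h).

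One 22-base miR-9226 form stayed low. pal-miR-9226-5p_1ss4AG was at 376, 358 and 691 in control, 642, 353 and 394 at 3 h, 59, 59 and 41 at 12 h, 37, 11 and 179 at 24 h, and 51, 25 and 7 after reoxygenation. No library from 12 h on reached the lowest control. The fitted differences were -3.09 ± 0.83 (SE), -3.39 ± 0.83 and -4.36 ± 0.83, and with the GC correction -1.34, -2.91 and -3.43. The other 22-base form, efu-miR-9226_2ss4AT22GA, was at 159, 250 and 431 in control, 34, 42 and 53 at 12 h, 93, 159 and 309 at 24 h and 50, 134 and 95 after reoxygenation. It overlapped with control at 24 h and lay below it at 12 h and after reoxygenation. Of all tested rows, 23.8% lay below every control at 12 h, 9.84% at 24 h and 9.04% after reoxygenation. The summed value of all miR-9226 forms averaged 3906 ± 2175 in control (SD, n = 3), 822 ± 145 at 12 h, 3513 ± 2143 at 24 h and 2242 ± 1689 after reoxygenation.

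The histidine-type row hsa-miR-4454_L-2_1ss8AG, the only row of its number, was at 239, 1322 and 759 in control, 902, 556 and 609 at 3 h, and 61, 136 and 191 at 12 h. It was at 248, 337 and 400 at 24 h and 174, 483 and 437 after reoxygenation. The 12 h libraries lay below all controls, as did 23.8% of all tested rows, and both later groups overlapped with control. The fitted difference at 12 h was -2.40 ± 0.61 (SE), -3.42 when scaled to the library total and -0.72 with the GC correction.

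The tyrosine-type miR-7550 was highest at 24 h. ipu-miR-7550 was at 789, 1618 and 957 in control, 1119, 393 and 416 at 3 h, and 880, 1115 and 619 at 12 h. In deposited values it reached 3440, 1669 and 3752 at 24 h, all above control, and 1350, 1653 and 1508 after reoxygenation, all below 24 h. Library 2 of 24 h, at 1669, was close to the highest control (1618) and to the highest reoxygenation library (1653). Of all tested rows, 5.85% lay above every control at 24 h, and 2.79% lay below 24 h after reoxygenation. The fitted difference at 24 h was 1.38 ± 0.46 (SE), 0.97 when scaled to the library total and 1.72 with the GC correction. As a share of the library total, all miR-7550 forms together were at 0.02071%, 0.07633% and 0.05056% in control and 0.07945%, 0.06243% and 0.1504% at 24 h. After reoxygenation they were at 0.03005%, 0.07066% and 0.03818%. On this scale 24 h overlapped with control and with reoxygenation. This number had 31 rows, 26 of them with bases after the CCA, such as gmo-miR-7550-5p_L-1R+2_1, whose value is shared by 5 rows with different added bases. That value was 831 in library 1 of 24 h against 98 and 229 in the other libraries of the group and 42, 107 and 48 in control.

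Forms with bases after the CCA made up part of each library's sum. For miR-9226 they took 31.3%, 40.1% and 33.3% of the summed value in control, 49.4%, 41.2% and 46.9% at 12 h, 65.4%, 53.5% and 56.4% at 24 h, and 42.2%, 31.5% and 52.3% after reoxygenation. The 12 h and 24 h libraries lay above all controls, and reoxygenation overlapped with control and lay below 24 h. At 12 h the margin was small, with 41.2% against a highest control of 40.1%, and library 1 of 3 h was at 41.3%. The sum also holds the 22-base forms, both called lower at 12 h in limma. Among the forms with added bases, pal-mir-9226-p5_1ss18CA was called lower at 12 h too. The share is therefore a description. For single rows, 40.7% had no overlap with control at 12 h and 15.7% at 24 h, and no such share was computed for percentages. For miR-7550 the share was 8.42% to 13.9% in control and 11.2%, 12.1% and 29.8% at 24 h, with overlap in every comparison with control. Whether the added bases were on the RNA or came from sequencing was not tested.

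**Figure D3:**
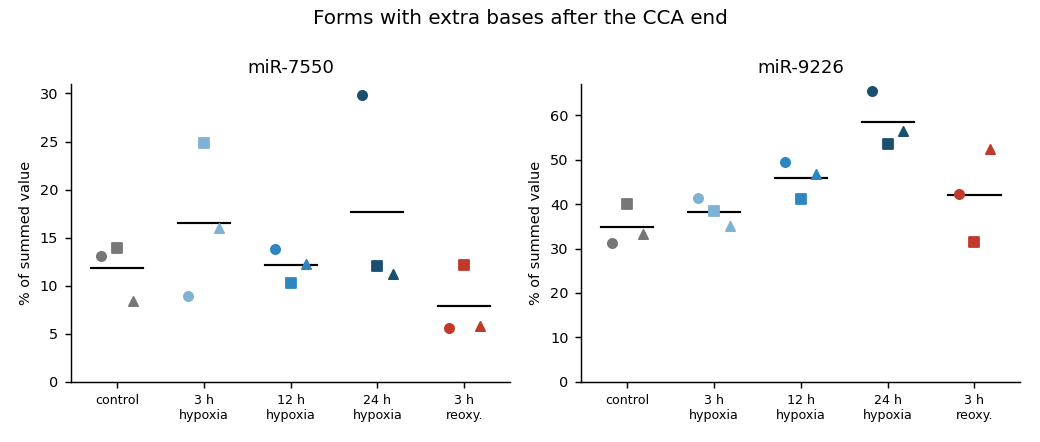
Percent of the summed value of miR-7550 (left) and miR-9226 (right) held by forms with 1 to 5 bases after the CCA, by library (circle, square and triangle are libraries 1, 2 and 3; bars are means). For miR-9226 all 3 libraries of 24 h (53.5% to 65.4%) lie above all controls (31.3% to 40.1%); for miR-7550 library 1 of 24 h stands alone at 29.8%.

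In deposited values the most abundant form of the rRNA-type miR-6240 overlapped between all groups. mmu-mir-6240-p5_1ss20GT was at 939, 620 and 493 in control, 526, 1156 and 419 at 3 h, 876, 502 and 760 at 12 h, 664, 1062 and 1437 at 24 h and 996, 1334 and 623 after reoxygenation. Its fitted difference at 12 h was 0.07 ± 0.46 (SE), -0.95 when scaled to the library total and 0.26 with the GC correction. As a share of the library total, all miR-6240 forms together were at 0.04825% to 0.05586% in control and 0.01725% to 0.02806% at 12 h, without overlap. How many other rows separate on this scale was not computed. At 24 h 3 of the 10 tested rows, or 2 profiles, lay above every control and 1 row lay below, where 5.85% of all tested rows lay above and 9.84% below. mmu-mir-6240-p3_1ss19GT and mmu-mir-6240-p5_1ss19GT_2, which hold the same sequence and values, were at 328, 226 and 206 in control and 372, 353 and 440 at 24 h. The sum of the number averaged 1540 ± 518 in control and 1350 ± 318, 2103 ± 541 and 2050 ± 831 at 12 h, 24 h and after reoxygenation (SD, n = 3). Forms that start upstream of the main form in stretch 1 made up 5 profiles. Together they were at 146, 88 and 89 in control, 57, 13 and 13 at 12 h, 64, 125 and 14 at 24 h and 42, 13 and 11 after reoxygenation. Their share of the number's sum was 7.07% ± 0.851 in control (SD, n = 3), 0.899% to 3.54% at 12 h, 0.550% to 5.52% at 24 h and 0.438% to 2.28% after reoxygenation, below every control in all 3 groups. At 3 h the share was 8.21%, 2.07% and 5.17% and overlapped with control. The summed value of these forms, unlike the share, overlapped with control at 24 h. Their profiles were low, with means of 1.47 to 21.7. Among single rows, 23.8% lay below every control at 12 h, 9.84% at 24 h and 9.04% after reoxygenation.

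mmu-miR-5099_L+2R-1 was listed at 0 in all 3 control and all 3 libraries of 3 h hypoxia. It was at 29, 0 and 11 at 12 h, 142, 37 and 109 at 24 h, and 61, 26 and 19 after reoxygenation. All 6 late libraries held it, while 12 h overlapped with control. Of all tested rows, 5.85% lay above every control at 24 h and 7.18% after reoxygenation. No fold is given against a control or 3 h group at 0, and the fitted difference of this row depends on the pseudocount of 1. The mean of this row, 28.9, passed the filter for testing only through the groups where it is high.

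**Figure D4:**
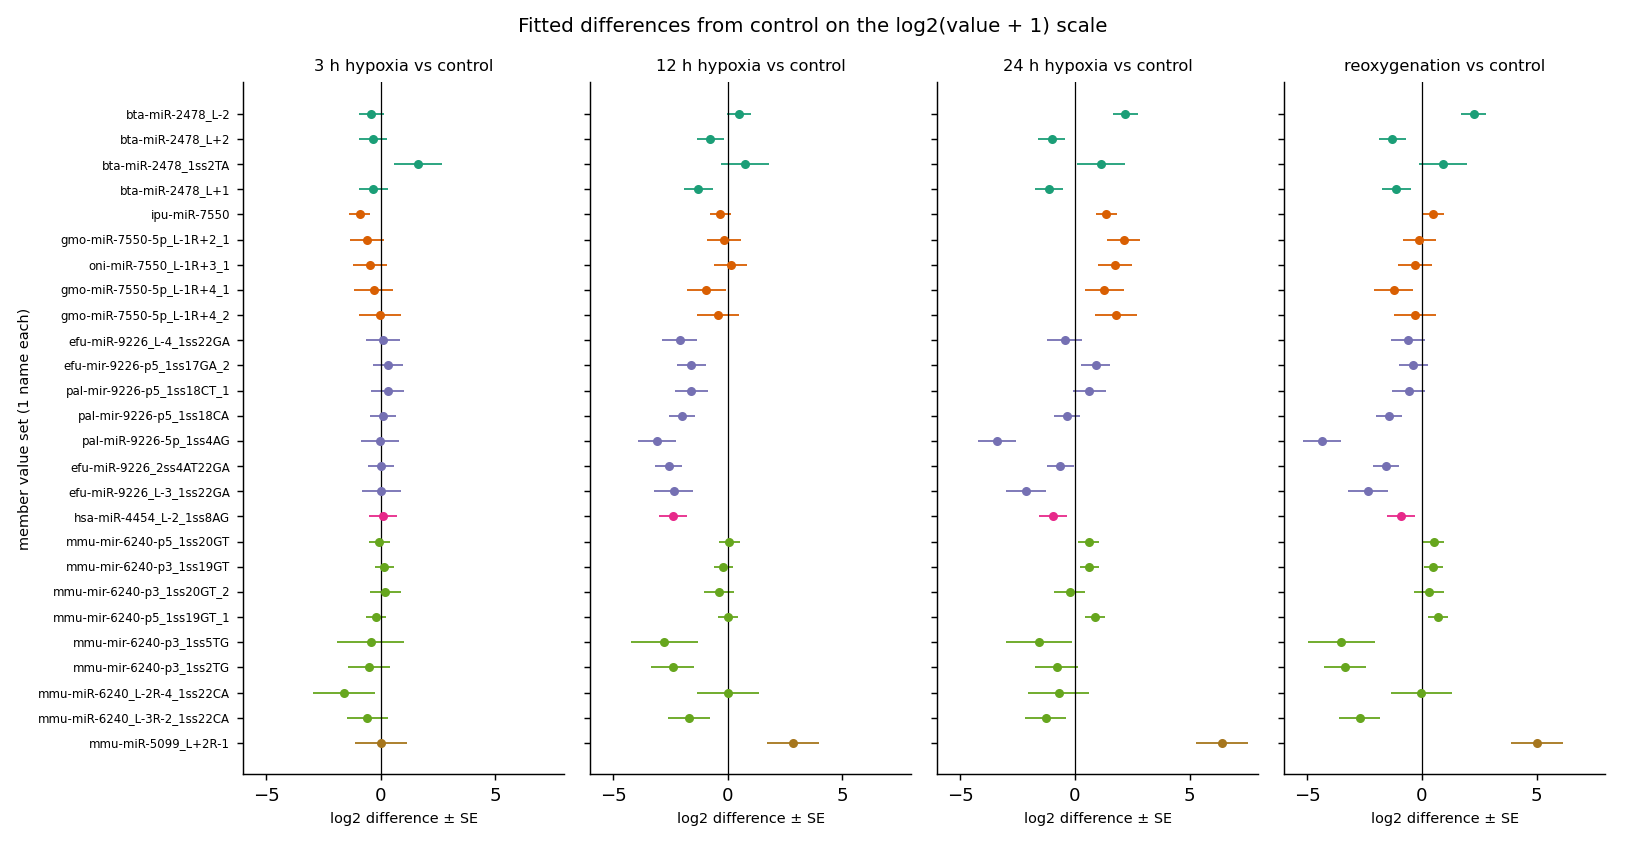
Fitted log2 differences from control (points) with their SE (bars) for the 26 tested member profiles in 4 comparisons, on the log2(value + 1) scale; colours separate the 6 numbers, ordered from top to bottom as miR-2478, miR-7550, miR-9226, miR-4454, miR-6240 and miR-5099. The miR-9226 and miR-4454 points lie left of 0 at 12 h, and at 24 h the 18-base miR-2478 form and the miR-7550 forms lie right of 0.

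Of the 69 rows, 39 averaged 10 or more across the 15 libraries and were tested with limma, which are 26 profiles; the other 30 rows had means up to 9.80. Among 752 tested rows of the table, limma with Benjamini-Hochberg adjustment called 0% at 3 h, and 0 of the 39 members. At 3 h the members' smallest adjusted p in limma was 0.995, with 0 at an unadjusted p under 0.05 and log2 differences from -1.60 to 1.64. At 12 h limma called 7.18% of all rows (5.19% higher and 1.99% lower) and 4 of 39 members, all lower: pal-miR-9226-5p_1ss4AG, efu-miR-9226_2ss4AT22GA, pal-mir-9226-p5_1ss18CA and hsa-miR-4454_L-2_1ss8AG. At 24 h it called 0.665% of rows (0.532% higher and 0.133% lower) and 1 member, mmu-miR-5099_L+2R-1, higher. After reoxygenation it called 2.13% of rows (1.46% higher and 0.665% lower) and 3 members, bta-miR-2478_L-2 and mmu-miR-5099_L+2R-1 higher and pal-miR-9226-5p_1ss4AG lower. The numbers were chosen with calls of these 3 comparisons known, so nothing is read from these counts. Between reoxygenation and 24 h hypoxia 0% of rows and 0 members were called (smallest member adjusted p in limma 0.824, 5 profiles at an unadjusted p under 0.05).

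Groups without overlap were common in the table, and the members are given against that background, all in deposited values. At 3 h the groups did not overlap in 5.85% of all rows (1.86% higher and 3.99% lower) and in 0 of the 39 member rows. At 12 h they did not overlap in 40.7% of all rows (16.9% higher and 23.8% lower) and in 12 member rows (30.8%), all lower, of which 8 were of miR-9226, 2 of miR-6240 and 1 each of miR-2478 and miR-4454. At 24 h the background was 15.7% (5.85% higher and 9.84% lower), and 9 member rows (23.1%) had no overlap, 6 higher and 3 lower. After reoxygenation it was 16.2% (7.18% higher and 9.04% lower), and 7 member rows (17.9%) had no overlap, 2 higher and 5 lower. Against 24 h hypoxia, the reoxygenation libraries did not overlap in 5.05% of all rows (2.26% higher and 2.79% lower) and in 6 member rows (15.4%), all of miR-7550 and all lower. These 6 rows hold only 3 distinct profiles. Counted as profiles, 0, 10, 8, 7 and 3 of the 26 tested members had no overlap in the comparisons above, in order. The shares of all rows also count identical rows more than once.

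The counts of calls changed when single libraries were left out. At 12 h the 4 member calls became 11 without control library 1, 0 without control library 2, control library 3 or library 1 of 12 h, 1 without library 2 and 2 without library 3 of 12 h. Over all 752 tested rows the 54 calls became 109, 4, 28, 9, 18 and 23 in these settings, in order. At 24 h the member count was 0 without control library 2 or 3 and 2 without library 1 or 3 of 24 h. Over all rows the 5 calls became 0 without control library 2 or 3, and 12 and 7 without library 1 and 3 of 24 h. After reoxygenation the member count was 1 without any 1 control library, 5 without library 1 and 0 without library 3 of reoxygenation. Over all rows the 16 calls became 16, 6 and 15 without control library 1, 2 and 3. They became 56 without library 1 and 4 without library 3 of reoxygenation.

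The median log2 difference over the 26 member profiles was -0.85 at 12 h, 0.19 at 24 h and -0.47 after reoxygenation, against -0.20, -0.18 and -0.16 over all 622 tested profiles. Scaling to the library total moved the median of all tested rows at 12 h from -0.20 to -1.21, and with it the 18-base miR-2478 form from 0.49 to -0.53. With the GC correction the median was -0.22, the 12 h differences of miR-9226 ran from -1.34 to 0.10 in place of -3.09 to -1.58, ipu-miR-7550 went from -0.34 to 1.05, and 0 members were called at 12 h. The direction of the miR-2478 and miR-7550 main forms at 12 h therefore differed between scalings.

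**Figure D5:**
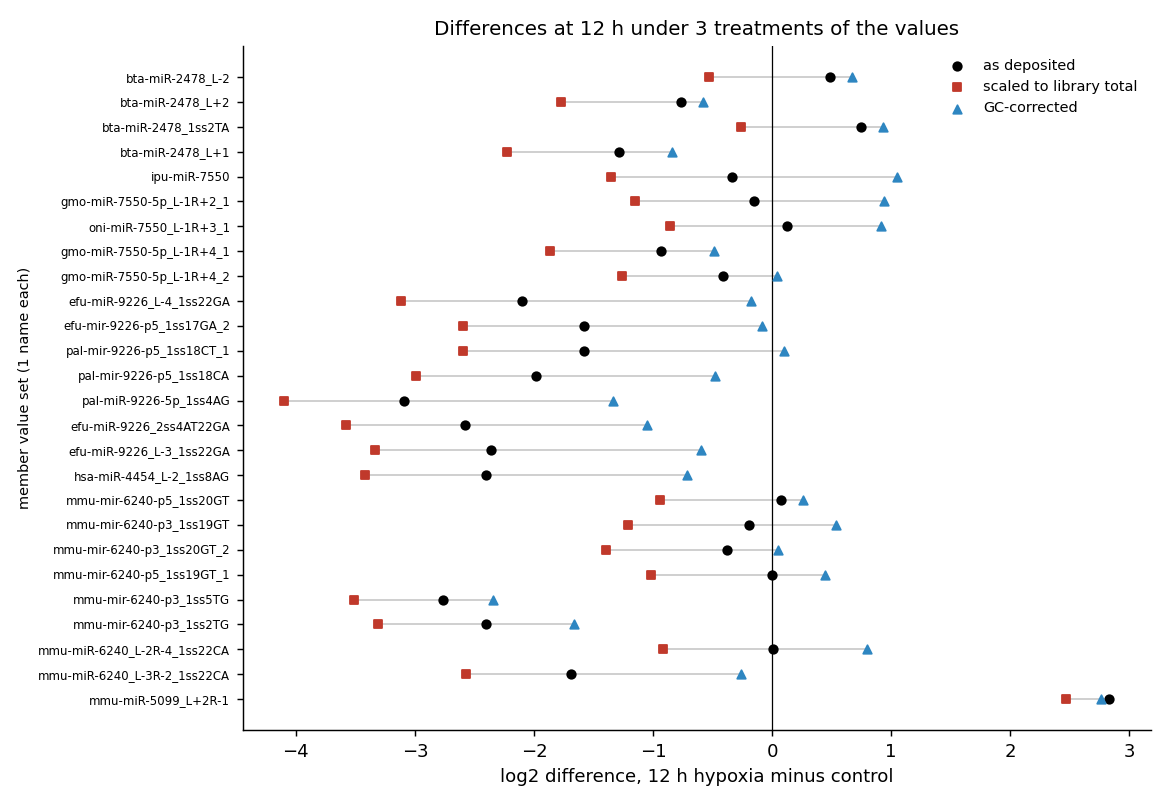
Log2 difference between 12 h hypoxia and control for the 26 tested member profiles, as deposited (black circles), scaled to the library total (red squares) and with a per-library GC correction (blue triangles). The miR-9226 and miR-4454 rows lie between -3.09 and -1.58 as deposited and between -1.34 and 0.10 after the GC correction.

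Other rows with a doubtful origin or a CCA end are given for comparison. Of the 25 entry numbers listed as lying in tRNA, rRNA or other structural RNA, 4 were in the table (miR-1246, miR-1260, miR-4286 and miR-6236), with 31 rows and 7 tested profiles. Of the 31 rows, 9 (29.0%) ended in CCA and 6 (19.4%) had 18 bases, and their median GC content was 61.1%. None of these 7 was called in limma in any comparison with control, where 0, 2, 1 and 1 of them were at an unadjusted p under 0.05 at 3 h, 12 h, 24 h and after reoxygenation. Their median log2 difference was -1.31 at 12 h, -0.11 at 24 h and 0.58 after reoxygenation. Among the 27 tested non-member profiles ending in CCA, true miRNAs such as ssa-miR-192a-5p_R+1 included, limma called 0 as well (1, 7, 2 and 2 at an unadjusted p under 0.05). Their median log2 difference was -0.924 at 12 h, 0.265 at 24 h and 0.354 after reoxygenation. At 12 h, 10 of the 27 and 4 of the 7 listed profiles lay below every control, as did 10 of the 26 member profiles and 23.8% of all tested rows. The 27 and the 7 share profiles, such as cgr-miR-1260, which is counted as below every control in both. Above every control lay 3 of the 27. One of the 27, pal-miR-9993a-3p_1ss9GA, was at 520, 646 and 669 in control, 330, 390 and 245 at 12 h, 804, 1705 and 1880 at 24 h and 773, 1466 and 1947 after reoxygenation, below every control at 12 h and above every control in both later groups. cgr-miR-1260, another 18-base row ending in CCA, was at 16459 in library 1 of reoxygenation against 512 and 490 in the other libraries of that group. These 2 rows were chosen after their values were seen.

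For each number's summed value, the non-member rows with the most similar course over the 15 libraries were ranked by Pearson correlation of log2(value + 1) among 596 tested profiles, as a description. All values of a library share its depth and base composition. For miR-2478 they were ssa-miR-25-3p (r = 0.843), pal-miR-9993a-3p_1ss9GA (0.842) and ssa-miR-15d-3p_R-3 (0.826), and for miR-5099 PC-3p-13989_144 (0.913), ssa-miR-25-3p (0.876) and gmo-miR-101a-3p (0.807). For miR-9226 they were ssa-miR-214-3p_L-1_1ss23AT (0.842), ssa-miR-92b-3p (0.836) and ssa-miR-24b-3p (0.826). For miR-4454 they were hsa-let-7i-3p_R-1 (0.893), ssa-miR-214-3p_L-1_1ss23AT (0.889) and ssa-let-7a-4-3p (0.879). For miR-7550 the 3 were predicted candidates (0.717 to 0.755), and for miR-6240 they were gmo-miR-10544-5p_R+4 (0.804), ola-miR-192-3p_R+1_1ss11CA (0.748) and ccr-mir-192-p3 (0.731).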

How the data were processed

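Liver RNA was extracted with Trizol, per the labels' protocols. The deposited values are used as a score. They are labelled TPM, but their totals differ between libraries, so the scale was taken as unknown. The authors normalized them and rounded them to whole numbers, so depth is unknown and no counting interval is given. A p-value for every row was deposited too, but the authors name no comparison for it, and it was left aside. The sources used here name no aligner, annotation or build. Sequences were read from the deposited table. Testing covered the 752 rows that averaged 10 or more, on log2(value + 1). One limma model (version 3.58.1, R 4.3.3) held all 5 groups and let the variance follow the mean, and Benjamini-Hochberg adjustment was made per comparison, with calls at 0.05. The fit was tested on simulated data. Sums count rows with identical values once, and such a set of values is called a profile. The miR-6240 stretches were joined from tested forms by exact overlaps of at least 10 bases. The GC correction subtracted a lowess curve (span 0.5) of deviation against GC content per library, fitted over all tested rows, members included. Nothing says that the libraries of a group came from separate fish, so p-values cover the spread among these libraries, which may be technical. Members, lists and settings were chosen with earlier results of these data known. The rule was to account for every member row and to name the 3 most similar non-member rows per number.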

Additional observations from a re-analysis of the deposited data

How the results depend on the processing

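The number of member rows called at 12 h was 4, and it became 2 with scaling to the total without miR-122, 1 with quantile normalization, 2 without a variance trend, 0 with the GC correction, 0 with the GC correction and the replicate block, 1 with forms summed (of 6 numbers) and 7 with the first library of both late groups (24 h hypoxia and reoxygenation) left out. Over all 752 tested rows the 54 calls became 20 (of 759), 50, 44, 7, 10, 51 (of 719) and 162 in these settings, in order. At 24 h the member count of 1 became 2 with a pseudocount of 10, 0 with a mean of at least 50 (which removes the miR-5099 row) and 3 with those libraries left out. Over all rows the 5 calls became 10, 3 (of 478) and 51. After reoxygenation the member count of 3 became 0 with the compared groups alone and 6 with those libraries left out. Over all rows the 16 calls became 0 and 76. The member count after reoxygenation was 2 with a pseudocount of 10, a mean of at least 50, scaling to the library total or to the total without miR-122, no variance trend, the replicate block or forms summed. Over all rows these settings called 18, 16 (of 478), 11 (of 782), 14 (of 759), 18, 19 and 15 (of 719), in order. The 12 h member count was also 3 with no filter on low rows, 5 with scaling to the library total and 6 with the compared groups alone. Over all rows these settings called 56 (of 1213), 75 (of 782) and 121. Of 21 other settings, single libraries left out included, the reoxygenation call of bta-miR-2478_L-2 held in 11 and that of pal-miR-9226-5p_1ss4AG in 19. Leaving out 1 library of the compared groups gave 0 to 11 calls at 12 h, 0 to 2 at 24 h and 0 to 5 after reoxygenation. At 3 h, and between reoxygenation and 24 h, the count was 0 in every setting run. The cause of these changes was not tested. The log2 ratio of 18- to 22-base forms, less that of control, was 3.23 at 24 h and 3.58 after reoxygenation for miR-2478, and with 1 library left out (a setting chosen after seeing the data) 2.61 to 3.65 and 2.96 to 4.27. For miR-9226 it was 1.25 and 1.99, and 0.85 to 1.51 and 1.44 to 2.40. These ratios hold rows that were called, so they too are descriptions and support nothing. Deviations of same-numbered libraries from their group means had correlations of -0.298 to 0.530. For libraries 1, 2 and 3 they were 0.530, 0.348 and -0.030 between reoxygenation and 24 h hypoxia. Between 24 h hypoxia and control they were 0.234, 0.360 and 0.030. The labels name no pairing, so the numbers were not taken as pairs, and whether same-numbered libraries share a batch was not tested. With the replicate block 4, 1 and 2 member rows were called at 12 h, at 24 h and after reoxygenation, and 70, 7 and 19 of all 752 tested rows.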
